A study of Caenorhabditis elegans with 39 samples.

Results

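The 8 genes described here encode the histone variants H3.3 (5 genes), H2A.Z (1 gene) and CENP-A (2 genes) of Caenorhabditis elegans. The H3.3 genes are his-69 (sequence name E03A3.3), his-70 (E03A3.4), his-71 (F45E1.6), his-72 (Y49E10.6) and his-74 (W05B10.1), the H2A.Z gene is htz-1 (R08C7.3), and the CENP-A genes are hcp-3 (F58A4.3) and cpar-1 (F54C8.2). They were chosen by name and not by a cut on measured values, though earlier results of these data were known. All 8 were among the 22844 features of the mRNA tables. A 22G-RNA locus was annotated for 5 of them (his-72, his-74, htz-1, hcp-3 and cpar-1) among 21815 small RNA features.

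Variant histones are made and placed into chromatin outside DNA replication, whereas the canonical core histones are made mainly during S phase from clusters of nearly identical genes. H3.3 takes the place of canonical H3 in transcribed and remodelled chromatin, H2A.Z sits in nucleosomes near promoters, and CENP-A marks the centromeric chromatin, which in this worm runs along the length of each holocentric chromosome. 22G-RNAs are antisense small interfering RNAs made by RNA-dependent RNA polymerases from mRNA templates. Those bound by the Argonaute CSR-1 match mRNAs that are expressed in the germline, and those bound by the WAGO Argonautes act in silencing, in part downstream of the piRNAs carried by the Argonaute PRG-1.

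Libraries of RNA longer than 200 nt, depleted of rRNA, and of small RNAs treated with polyphosphatase were made from egg-bearing adults of 68 to 70 h, raised at 20°C. The groups used here were distal gonad arms of the wild type strain N2, of prg-1(n4357) and of mut-16(pk710), and N2 whole animals, with 3 libraries per group and assay, 24 libraries in all. Each gonad library came from many pooled arms from which the proximal part, with oocytes and sperm, had been cut away, and both mutants had been outcrossed to N2 before collection. mut-16 is needed to make the WAGO-class 22G-RNAs. The comparisons ask which transcripts and 22G-RNAs differ between the distal germline and the whole animal, and which differ when piRNAs or WAGO-class 22G-RNAs are lost.

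Depth was worked back from the normalized values as the reads counted to the listed features, so reads elsewhere are left out. It was about 12772739 to 17810753 reads per mRNA library. Per small RNA library it was about 4215264 to 7051210 reads for wild type gonads and 2317176 to 3012349 for mut-16. It was about 2872222 to 5538872 for prg-1 and only 505952 to 1642602 for whole animals. Against the labels, prg-1 mRNA stood at 4671 to 6264 normalized reads in the prg-1 mutant and 9973 to 11170 in the wild type, and mut-16 mRNA at 927 to 978 in its own mutant and 2050 to 2086 in the wild type. Of the piRNAs tested, 1975 of 1984 were lower in prg-1 gonads, and 2387 of 2394 WAGO-class loci were lower in mut-16 gonads. The summed level of 7 intestine markers was 51.3 to 276 normalized reads in wild type gonads and 95170 to 104900 in whole animals. Relative to whole animals, all 7 intestine markers, all 6 muscle markers and 8 of 9 tested sperm markers were lower in gonads.

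In the wild type, the CENP-A genes, htz-1 and his-74 were higher in distal gonads than in whole animals, his-71 and his-70 were lower, and his-72 differed little. A call required an adjusted p below 0.05 (limma on log2(normalized reads + 1), Benjamini-Hochberg over all features tested) and a fold of at least 1.3. By this rule 6 of the 7 tested genes were called, beside 78.6% of all 12761 mRNAs tested. Calls in the upward direction were made for 4 of the 7 genes and for 26.1% of all mRNAs, and downward calls for 2 of the 7 and for 52.6%. his-69 did not reach 10 normalized reads in 3 libraries and was not tested. In a bulk sample, fewer cells of a type and less RNA per cell cannot be told apart.

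hcp-3, which encodes the CENP-A that builds the centromere, stood at 2069, 1962 and 2035 normalized reads in the 3 whole animal libraries and at 4446, 4117 and 4216 in the 3 gonad libraries. Each gonad library was above each whole animal library. The log2 change was 1.07 ± 0.06 (SE, n = 3 per group, adjusted p = 3.4e-07 by limma), a 2.11-fold difference above 98.2% of all mRNAs tested.

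cpar-1, which encodes a second CENP-A-like protein, was at 937, 813 and 895 normalized reads in whole animals and 1660, 1406 and 1422 in gonads. The groups did not overlap, and the change was 1.69-fold (log2 0.76 ± 0.09 SE, limma adjusted p = 5.2e-05). htz-1, the single H2A.Z gene, was at 1158, 944 and 1041 normalized reads in whole animals against 1838, 1509 and 1462 in gonads. It was 1.53-fold higher in gonads (log2 0.61 ± 0.11 SE, limma adjusted p = 7e-04), again without overlap.

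The H3.3 genes went in different directions. his-74 was at 446, 444 and 456 normalized reads in whole animals and 836, 703 and 770 in gonads, 1.71-fold higher in gonads (log2 0.77 ± 0.09 SE, limma adjusted p = 3.6e-05). his-71 went the other way, with 146, 248 and 253 normalized reads in whole animals and 18.5, 15.4 and 3.22 in gonads. Its log2 change of -4.25 ± 0.57 (SE, limma adjusted p = 0.00018) was a 19-fold lower level in gonads, and the lowest whole animal library lay far above the highest gonad library. Without gonad replicate 3, the lowest, the log2 change was -3.55. his-71 met the limit for testing through the whole animal libraries, which its gonad values alone would not have met.

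his-72 was at 853, 853 and 904 normalized reads in whole animals and 1103, 954 and 1037 in gonads. The groups did not overlap, but the log2 change of 0.24 (95% interval 0.07 to 0.42, limma adjusted p = 0.016) was under the fold threshold. his-70 was low in both tissues, with 10.9, 22.2 and 36 normalized reads in whole animals and 2.93, 10.3 and 0 in gonads. It met the limit for testing through the whole animal libraries, which its gonad values alone would not have met. It was called lower in gonads (log2 -2.62 ± 0.86 SE, limma adjusted p = 0.021). The call was lost without gonad replicate 1 (adjusted p = 0.058), whole animal replicate 2 (0.057) or whole animal replicate 3 (0.097). Without whole animal replicate 2 or 3 the mRNAs tested also fell from 12761 to 8900 and 8897, so these adjusted p-values rest on another set of mRNAs. The log2 change was -3.45 without gonad replicate 2 and -1.70 without gonad replicate 3. his-69, whose gene lies next to his-70 on chromosome III, was at 1.06 to 2.32 normalized reads in whole animals and 1.95 to 4.29 in gonads, close to the limit of detection. The sum over the 5 H3.3 genes was 1560 ± 96.7 normalized reads (SD, n = 3) in whole animals and 1821 ± 138 in gonads, and that over both CENP-A genes was 2904 ± 118 and 5756 ± 309.

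**Figure D1:**
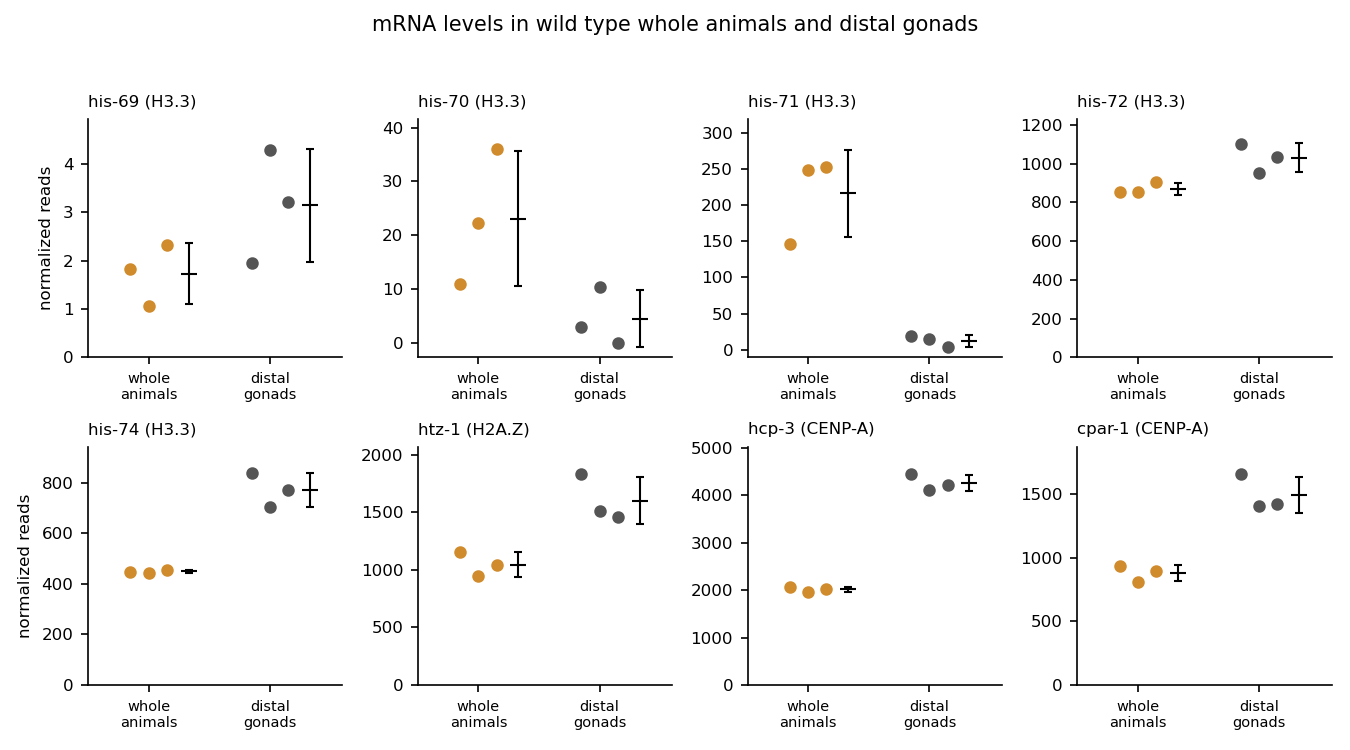
Normalized mRNA reads (y axis, linear, one scale per panel) of the 8 variant histone genes in wild type whole animals and distal gonads. Points are the 3 libraries of each group and the bar gives mean ± SD. hcp-3 rises from 1962 to 2069 in whole animals to 4117 to 4446 in gonads, while his-71 falls from 146 to 253 to 3.22 to 18.5.

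Of 14 H3 deposition genes (histone chaperones and their partners) 10 were higher in gonads and 0 lower, beside 26.1% higher over all mRNAs, and their median log2 change was 0.50 against -0.79 over all mRNAs. Germline markers moved alike, with 7 of 8 distal germline markers (median 0.68) and 5 of 6 oocyte markers (median 0.67) higher and 0 lower, and the part of germline content in these counts was not tested. unc-85, an ASF1 histone chaperone, went from 2042 ± 41.9 to 4225 ± 35.3 normalized reads (SD, n = 3). Of 10 genes related to H2A.Z exchange 6 were higher and 0 lower (median 0.52), among them ruvb-1, an AAA+ ATPase of chromatin remodelling complexes, at 3584 ± 224 in whole animals and 6217 ± 232 in gonads. Of 19 CENP-A loading and kinetochore genes 15 were higher and 0 lower (median 0.51), led by spdl-1, the Spindly protein of the kinetochore, at 1193 ± 44.1 and 2487 ± 86.7. Among 62 tested canonical core histone genes 29 were higher and 26 lower. Canonical histone copies share sequence, and the 64 copies in the table held only 44 distinct sets of values, so they were not independent measurements.

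The prg-1 and mut-16 comparisons used the same 3 wild type gonad libraries, so they are not independent of each other. In both, the genes for H2A.Z, CENP-A and the H3.3 gene his-74 stayed close to their wild type mRNA level, and his-70 was the one gene that was called. In prg-1 gonads 1 of the 7 tested genes was called, beside 30.3% of all 9943 mRNAs tested (20.7% higher and 9.53% lower). In mut-16 gonads it was also 1 of 7, beside 20.1% of all mRNAs (15.5% higher and 4.60% lower). That call held under some settings, such as TMM scaling (limma adjusted p = 0.046) or a fit of the 2 groups alone (0.019). It was lost under others, given below.

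his-70 mRNA was at 2.92, 10.7 and 0 normalized reads in wild type gonads. It was at 39.5, 71.5 and 263.5 in prg-1 gonads, where replicate 3 was several times above the other 2 libraries. In mut-16 gonads it was at 17.5, 48.6 and 24. Every mutant library was above every wild type library.

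The log2 change of his-70 in prg-1 gonads was 4.68 ± 0.96 (SE, limma adjusted p = 0.0052), 25.7-fold on the log2(normalized reads + 1) scale with a 95% interval from 5.58 to 118. Without prg-1 replicate 3 the log2 change was 3.92 and remained called (limma adjusted p = 0.014). It was 5.27 without prg-1 replicate 1, 5.54 without wild type replicate 2 and 3.76 without wild type replicate 3, so the size of the fold rests on single libraries. In mut-16 gonads it was 2.99 ± 0.96 (limma adjusted p = 0.046), and 3.84 without wild type replicate 2 and 2.07 without wild type replicate 3. Same-numbered wild type and mut-16 libraries had residuals that correlated at 0.124 to 0.547 and were taken as pairs, but the limma adjusted p of 0.046 ignores this pairing. With replicate numbers as a block over all gonad mRNA libraries, prg-1 included, the mut-16 value was no longer called (limma adjusted p = 0.059). A block over wild type and mut-16 alone was not fitted. The call was also lost without any one of the mut-16 libraries or without wild type replicate 1 or 3 (adjusted p = 0.073 to 0.14). Between prg-1 and mut-16 gonads his-70 differed by a log2 change of 1.70 (95% interval -0.51 to 3.90, limma adjusted p = 0.21), which was not called.

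Sperm marker mRNAs moved in the same libraries as his-70. Their sum over 11 genes was 304.5, 624 and 345.6 normalized reads for the wild type, 1998, 3019 and 1540 for mut-16 and 2227, 4009 and 10640 for prg-1 gonads, with prg-1 replicate 3 again the highest. Of the 10 sperm markers tested, 10 were higher in prg-1 gonads (median log2 change 4.59) and 8 in mut-16 gonads (median 3.33). 1 marker, spe-38, was at 0 in a wild type library. Muscle markers summed to 485 to 664 normalized reads for the wild type, 1187 to 1491 for mut-16 and 1387 to 2810 for prg-1 gonads, and 4 of 5 tested were higher in each mutant. The part of sperm and muscle transcripts in the his-70 values was not tested.

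**Figure D2:**
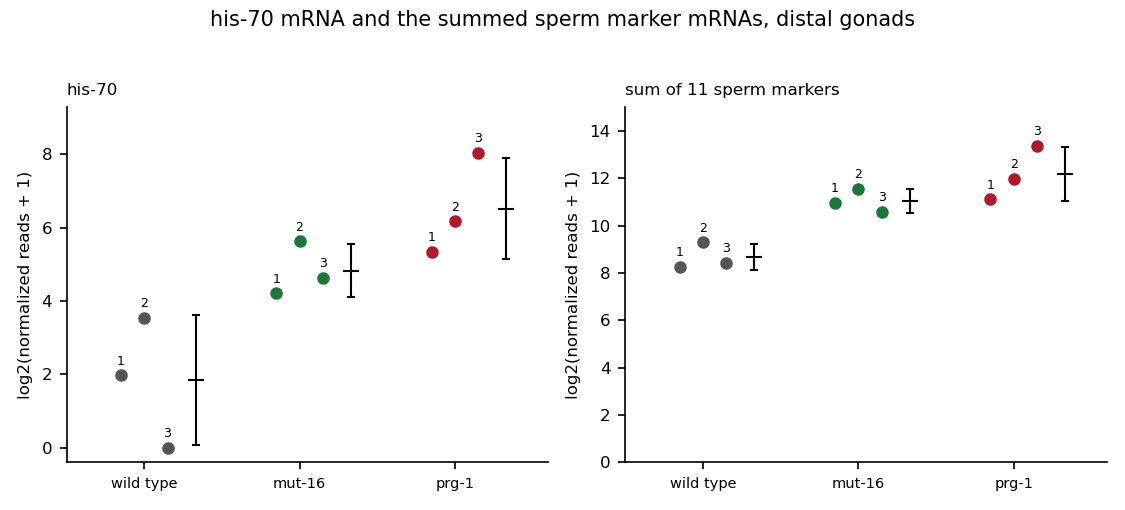
log2(normalized reads + 1) of his-70 mRNA (left) and of the summed mRNAs of 11 sperm markers (right) in distal gonads. Points are libraries, numbered by replicate, and the bar gives mean ± SD. prg-1 replicate 3 is highest in both panels, at 263.5 normalized reads of his-70 and 10640 of the markers.

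The other H3.3 genes moved less. his-72 was at 1100, 992.6 and 1045 normalized reads for the wild type, 1215, 1342 and 1248 for mut-16 and 1103, 1241 and 1415 for prg-1 gonads. All mut-16 and prg-1 libraries were above the wild type mean of 1046 ± 53.6 (SD, n = 3). The changes of 1.21-fold in mut-16 gonads (limma adjusted p = 0.034) and 1.19-fold in prg-1 gonads (adjusted p = 0.035) passed on p but were under the 1.3-fold threshold, with 95% intervals of 1.06 to 1.38 and 1.05 to 1.36.

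his-71 stayed low in gonads of each genotype, at 18.5, 16.1 and 3.24 normalized reads for the wild type, 17.5, 19.6 and 16.7 for mut-16 and 16.6, 22.2 and 29.6 for prg-1. Wild type replicate 3 was the lowest of these libraries. Its fold of 2.07 in prg-1 gonads had a 95% interval of 0.900 to 4.75 (limma adjusted p = 0.14). his-69 was at 1.94 to 4.46, 3.08 to 7.24 and 3.02 to 7.64 normalized reads in gonads of the wild type, mut-16 and prg-1, which is a few reads per library, and was not tested.

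For the remaining 4 genes the intervals were narrow enough to bound the change. his-74 averaged 780 ± 51 normalized reads for the wild type, 737 ± 40.8 for mut-16 and 827 ± 98.0 for prg-1 gonads (SD, n = 3). htz-1 averaged 1624 ± 186, 1791 ± 62.8 and 1692 ± 143. hcp-3 averaged 4321 ± 98.3, 4028 ± 185 and 4203 ± 303. The ranges of the genotypes overlapped for each of these genes, and also for cpar-1 at 1516 ± 121, 1567 ± 89.9 and 1430 ± 149, except that the 3 mut-16 values of hcp-3 were below the 3 wild type values.

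The 95% intervals of the fold in prg-1 gonads were 0.922 to 1.21 for his-74, 0.917 to 1.19 for htz-1, 0.890 to 1.06 for hcp-3 and 0.827 to 1.07 for cpar-1. In mut-16 gonads the log2 intervals of the same genes were -0.28 to 0.12, -0.04 to 0.33, -0.23 to 0.02 and -0.14 to 0.24. Each of these intervals lay inside a 1.3-fold change in either direction. Between prg-1 and mut-16 gonads 0 of 7 genes were called by limma, and 0 had an unadjusted p below 0.05, beside 15.4% of all mRNAs called.

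**Figure D3:**
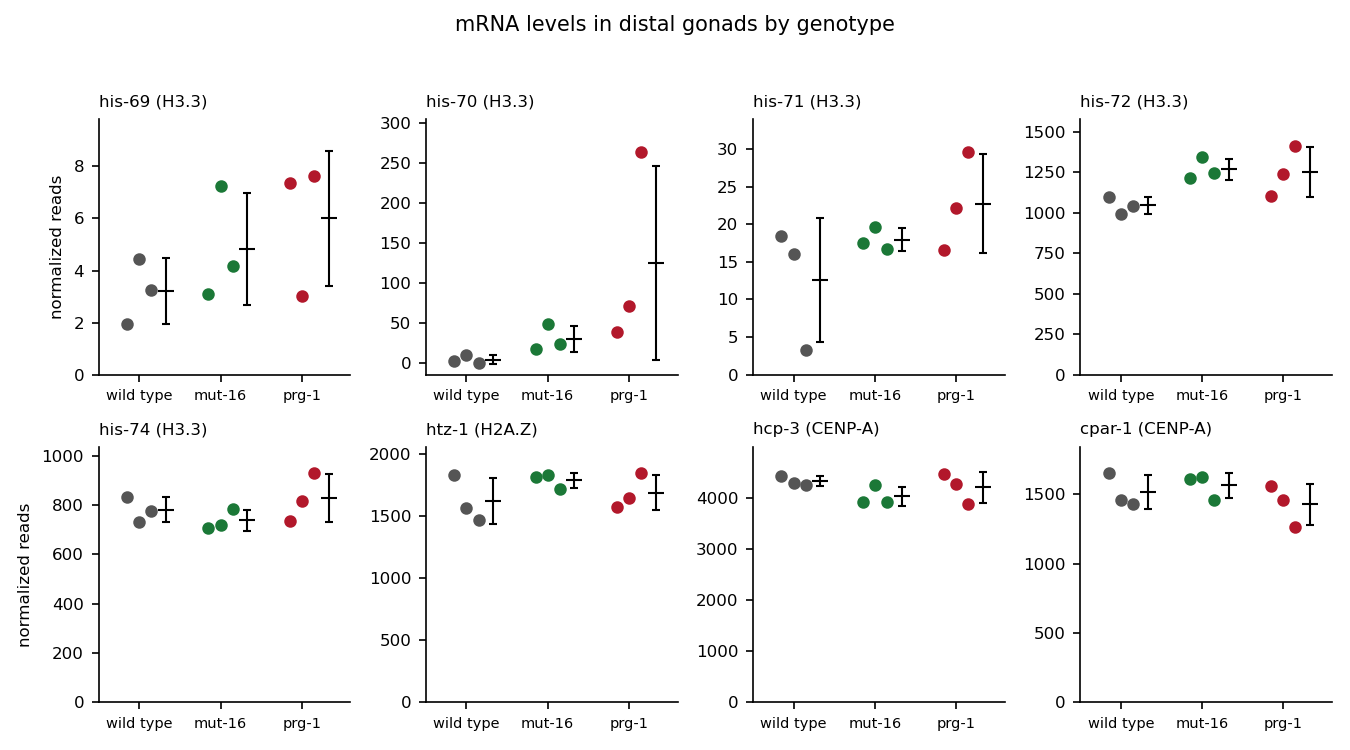
Normalized mRNA reads (y axis, linear, one scale per panel) of the 8 variant histone genes in distal gonads of wild type, mut-16 and prg-1 animals. Points are the 3 libraries of each genotype and the bar gives mean ± SD. his-70 reaches 263.5 in one prg-1 library against at most 10.7 in wild type, while hcp-3 keeps between 3871 and 4465 throughout.

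The counts of the lists around the variants stand beside 30.3% of all mRNAs called with prg-1 mutated and 20.1% with mut-16 mutated. In prg-1 gonads 0 of the 14 H3 deposition genes were higher and 1 was lower, namely asfl-1, an ASF1 histone chaperone (1317 ± 46.4 normalized reads against 2358 ± 33.4 in wild type, log2 change -0.84 ± 0.05 SE, limma adjusted p = 2.8e-06). In mut-16 gonads the 1 that was lower was spt-16, a subunit of the FACT chaperone (7392 ± 109 against 10010 ± 176, log2 change -0.44 ± 0.04 SE, adjusted p = 3.9e-05). None of the 10 genes related to H2A.Z exchange was called in either mutant. Of the 19 CENP-A loading and kinetochore genes 0 were called in prg-1 gonads, and kbp-4, a kinetochore protein, was called higher in mut-16 gonads (1626 ± 56.5 against 1143 ± 87.9, log2 change 0.51 ± 0.08 SE, adjusted p = 0.0016). Of the canonical core histones 4 of 62 tested copies were higher and 32 lower in prg-1 gonads (median log2 change -0.81), and 25 were higher and 20 lower in mut-16 gonads (median -0.16).

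Across the 9 gonad mRNA libraries, the genes whose log2 levels followed each variant most closely were found by Pearson's r. This is a description only, since the libraries fall into 3 genotypes and share their depth and scaling. his-70 was followed by ZK688.10 and kin-21 (r = 0.995 for both), which averaged 3.32 and 4.57 normalized reads in wild type and 97.7 and 78.6 in prg-1 gonads. his-72 was followed by catp-7 and Y38E10A.24 (0.971 for both), his-71 by fbxb-59 (0.966) and B0252.3 (0.935), and his-74 by crh-1 (0.940) and rpl-7 (0.907). cpar-1 was followed by sel-13 (0.966) and memi-1 (0.961), htz-1 by ned-8 (0.934) and Y92H12BR.2 (0.920), and hcp-3 by K11D12.12 (0.906) and apc-10 (0.893).

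All 5 variant histone loci with annotated 22G-RNAs were of the CSR-1 class, which holds 3640 of the loci in the table beside 2434 of the WAGO class. In the wild type all 5 had more 22G-RNA reads in gonads than in whole animals, beside 55.1% of all small RNA features called and 31.9% called higher. Among the CSR-1-class loci alone 60.9% were called higher, with a median log2 change of 0.71. The whole animal values rest on few reads, for example 10, 36 and 8 reads of his-72 in the 3 libraries.

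hcp-3 22G-RNAs were at 755, 1214 and 1067 normalized reads in whole animals and 3169, 3138 and 3140 in gonads (log2 change 1.66 ± 0.17 SE, limma adjusted p = 0.00029). cpar-1 was at 45.1, 124 and 92.4 against 348, 293 and 323 (log2 change 1.98 ± 0.33 SE, limma adjusted p = 0.0021). The log2 changes of his-72, htz-1 and his-74 were 1.59 ± 0.18, 1.45 ± 0.23 and 1.06 ± 0.15. Counted against the reads of the CSR-1 class alone, a scaling added after seeing the data, 3 of the 5 stayed called (hcp-3 at 0.79, cpar-1 at 1.12 and his-72 at 0.73), while htz-1 at 0.60 (limma adjusted p = 0.064) and his-74 at 0.19 (adjusted p = 0.27) did not.

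In gonads of both mutants the 22G-RNAs of his-72 and htz-1 took a larger part of the CSR-1-class reads than in the wild type. Those of his-74 did so in prg-1 gonads alone, whereas those of hcp-3 and cpar-1 overlapped the wild type. On the deposited scale 3 of 5 loci were called higher in prg-1 gonads, beside 62.6% of all 8031 small RNA features called and 15.3% called higher, and 21.7% of the CSR-1-class loci called higher. In mut-16 gonads 2 of 5 were called higher, beside 57.3% of all features called and 23.7% called higher, and 35.9% of the CSR-1-class loci. These directions depend on the scaling: with libraries scaled on the miRNAs alone, the log2 changes of all 5 loci were below 0 in both comparisons. On the deposited scale the 98 miRNAs tested had median log2 changes of 1.31 in prg-1 and 0.99 in mut-16 gonads. In the wild type, 127 of 138 tested miRNAs were called depleted in gonads against whole animals, with a median log2 change of -5.03. Whether miRNAs are a steady reference for scaling gonad libraries was not tested. The change minus that of the median CSR-1-class locus is given beside each change. It is not the same measure as the change with CSR-1-class totals made equal, and the values of both differ.

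his-72 22G-RNAs were at 355, 342 and 294 normalized reads for the wild type, 633, 651 and 573 for mut-16 and 814, 675 and 742 for prg-1 gonads. Every mutant library was above every wild type library. The log2 change was 1.17 ± 0.10 (SE, limma adjusted p = 1.7e-06) in prg-1 gonads and 0.91 ± 0.10 (adjusted p = 1e-05) in mut-16 gonads, and -0.10 and -0.09 with scaling on miRNAs alone. Against the median CSR-1-class locus it was 1.06 and 0.61 higher, above 98.4% and 97.3% of the class.

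htz-1 22G-RNAs were at 217, 205 and 220 normalized reads for the wild type, 342, 331 and 286 for mut-16 and 427.5, 388 and 517 for prg-1 gonads, with no overlap between any of the genotypes. The log2 change was 1.04 ± 0.11 (SE, limma adjusted p = 1.3e-05) in prg-1 gonads and 0.57 ± 0.11 (adjusted p = 0.0012) in mut-16 gonads, and -0.23 and -0.42 with scaling on miRNAs alone. Against the class median it was 0.93 and 0.28 higher, above 97.9% and 83.6% of the CSR-1-class loci.

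his-74 22G-RNAs were at 719, 704 and 714 normalized reads for the wild type, 790, 813 and 930 for mut-16 and 1175, 1053 and 1020 for prg-1 gonads. The libraries of each genotype were again apart from the others. The log2 change in prg-1 gonads was 0.60 ± 0.08 (SE, limma adjusted p = 4.3e-05), which was 0.49 above the class median, and it was -0.67 with scaling on miRNAs alone. The call was lost when library totals were made equal (0.29, limma adjusted p = 0.035) or when CSR-1-class totals were (0.26, adjusted p = 0.013), both under the fold threshold. In mut-16 gonads the log2 change of 0.24 was 0.05 below the class median.

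The 22G-RNAs of hcp-3 were at 8268, 8366 and 7997 normalized reads for the wild type, 9777, 9207 and 8299 for mut-16 and 10890, 9923 and 8570 for prg-1 gonads. Those of cpar-1 were at 909, 782 and 823, at 985, 1067 and 945, and at 1056, 933 and 882 in the same order. Neither locus was called in either mutant, with log2 changes in prg-1 gonads of 0.25 (95% interval 0.05 to 0.44) and 0.19 (0.00 to 0.38), near the middle of the CSR-1 class at 62.8% and 57.1% of its loci. In mut-16 gonads their log2 changes were 0.14 and 0.25, which minus the class median were -0.15 and -0.04. With scaling on miRNAs alone both fell below the wild type in prg-1 gonads, by log2 changes of -1.03 and -1.08 (limma adjusted p = 0.013 and 0.008).

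In RPM of the CSR-1 class, that is with the CSR-1-class reads of each library scaled to 1 fixed total, his-72 was at 171, 167 and 138 for the wild type, 262, 259 and 229 for mut-16 and 313, 259 and 273 for prg-1 gonads. htz-1 was at 102.3 ± 2.40 (SD, n = 3), 129 ± 13.7 and 168 ± 20.9. Each mutant library was above each wild type library for both loci. his-74 was at 346, 343 and 334 for the wild type, 327, 323 and 372 for mut-16 and 452, 403 and 375 for prg-1 gonads, apart from the wild type in prg-1 gonads alone. The share of CSR-1-class loci that separate in these ways was not counted. hcp-3 took 3931 ± 169 RPM (SD, n = 3) for the wild type, 3674 ± 365 for mut-16 and 3713 ± 524 for prg-1 gonads, so that its groups overlapped.

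With CSR-1-class totals made equal, his-72 was called higher in prg-1 gonads (log2 change 0.83, limma adjusted p = 2.9e-05) and mut-16 gonads (0.66, adjusted p = 0.00024), and htz-1 in prg-1 gonads (0.70, adjusted p = 0.00016). In mut-16 gonads htz-1 was at 0.33 (adjusted p = 0.028), under the fold threshold. The CSR-1 class as a whole took 43.4 to 45.7% of the small RNA values in wild type, 43.8 to 47.1% with prg-1 mutated and 75.6 to 86.4% with mut-16 mutated.

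**Figure D4:**
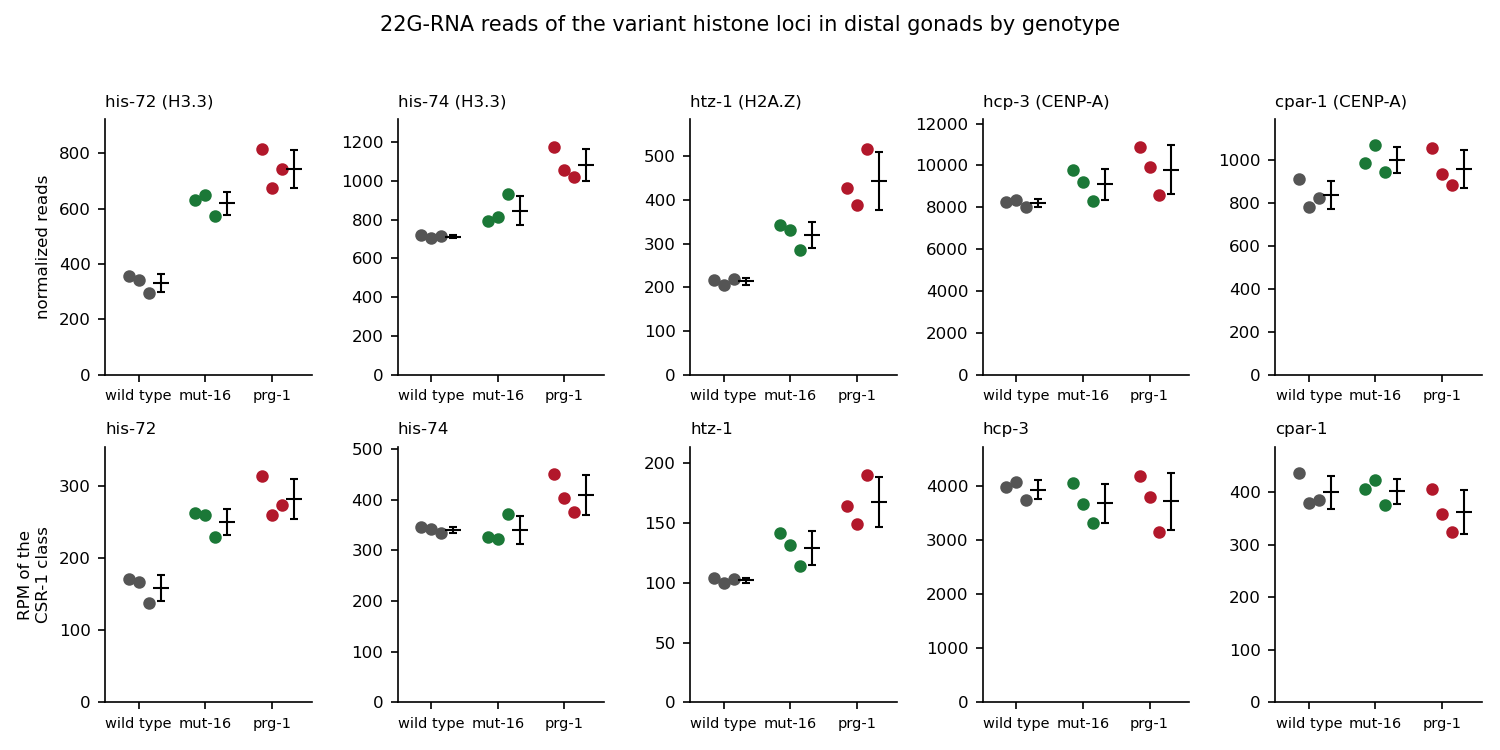
22G-RNA reads of the 5 variant histone loci in distal gonads, as deposited normalized reads (top) and as RPM of the CSR-1 class (bottom), on linear axes with one scale per panel. Points are the 3 libraries of each genotype and the bar gives mean ± SD. In the bottom row his-72 stands at 138 to 171 in wild type and 229 to 313 in the mutants, while hcp-3 overlaps among the genotypes.

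Between the mutants, htz-1 was the 1 of 5 loci called, higher with prg-1 mutated than with mut-16 mutated by a log2 change of 0.47 ± 0.11 (SE, limma adjusted p = 0.004), beside 59.5% of all features called and 7.74% of the CSR-1-class loci called higher. The call was lost without prg-1 replicate 3 (log2 change 0.35, limma adjusted p = 0.012), with CSR-1-class totals made equal (0.37, adjusted p = 0.011), both under the fold threshold, and with scaling on miRNAs alone (0.19, adjusted p = 0.66). It was 0.64 above the class median, which itself was -0.17. his-74 at 0.36 and his-72 at 0.26 were 0.53 and 0.44 above that median but under the fold threshold. When library totals were made equal the direction turned for each of these, to -0.48, -0.59 and -0.68, with which the median over all small RNAs moved by -0.92.

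**Figure D5:**
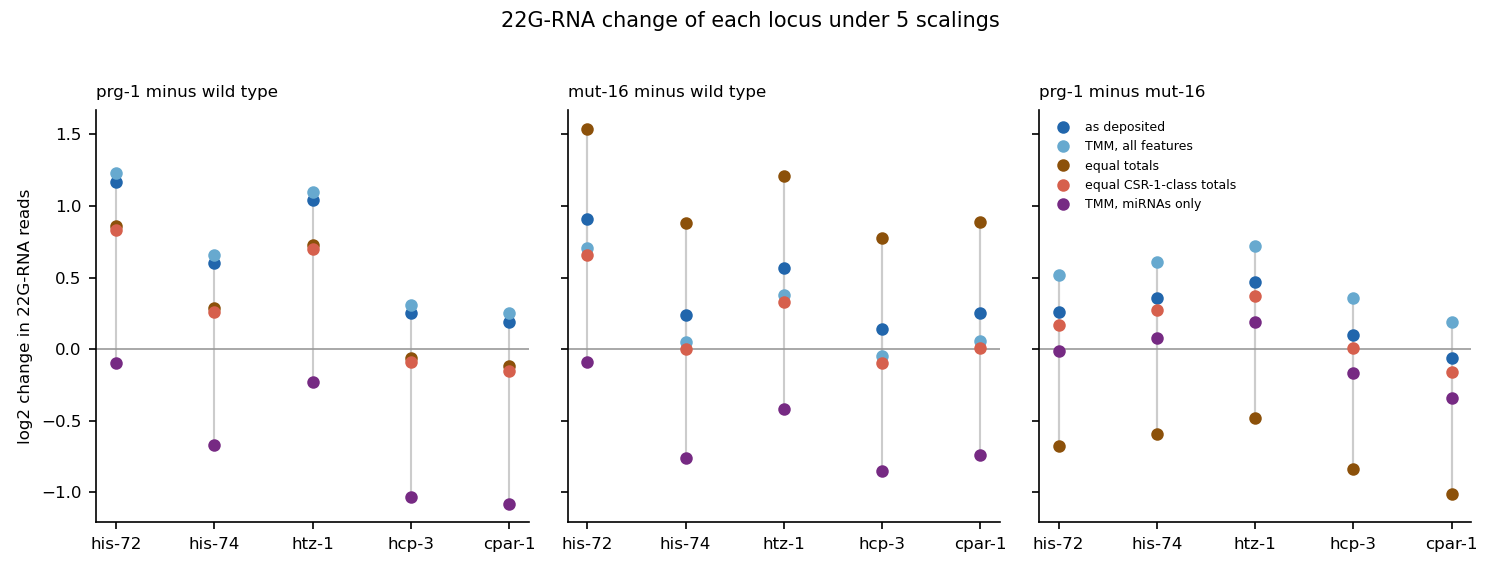
log2 change in 22G-RNA reads (y axis) of the 5 variant histone loci in 3 comparisons, under 5 ways of scaling the libraries (colours). A scaling acts on whole libraries, so the 5 loci of a comparison shift by nearly the same amount between scalings. In prg-1 gonads his-72 ranges from -0.10 with scaling on miRNAs alone to 1.23 with TMM over all features. It lies above hcp-3 and cpar-1 under each scaling, an order that rescaling could hardly change.

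Set beside the mRNAs, the loci with more 22G-RNA reads showed small mRNA differences. In prg-1 gonads the log2 changes in 22G-RNA and in mRNA were 1.17 and 0.25 for his-72, 1.04 and 0.06 for htz-1 and 0.60 and 0.08 for his-74. No 22G-RNA locus was annotated for his-70, his-71 or his-69. Of the 67 canonical core histones listed, only 10 had an annotated 22G-RNA locus, so these do not stand for all copies. In prg-1 gonads 9 of the 10 loci were called higher (median log2 change 1.43), beside 15.3% of all features. In mut-16 gonads all 10 were called lower (median -3.10), beside 33.6% of all features. Of the WAGO-class loci tested, 2387 of 2394 were lower in mut-16 gonads, with a median of -5.58. The class of the 10 canonical histone loci is not given here, and whether they follow the WAGO-class loci was not tested. The 10 loci held 9 distinct sets of values, so they were not all separate measurements. H3.3 genes are close in sequence to each other and to canonical H3 genes, and how small RNA reads that match several copies were counted was not given in the sources used here, so the share of such reads in the his-72 and his-74 values was not tested.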

How the data were processed

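Normalized read tables for mRNAs and for small RNA features were used as deposited, in the unit of a scaled read signal. Per the labels and the study's methods, the authors trimmed mRNA reads (Trimmomatic 0.35), mapped them to WormBase release WS230 (STAR 2.5.0a), counted them with RSEM 1.3.0 and scaled them with DESeq2 1.18.1. RSEM divides reads that match several genes, so near-identical H3.3 and canonical copies are uncertain. Small RNA reads had to match perfectly and were counted with the authors' own scripts.

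Wild type gonads occur in 2 tables that were scaled separately, and no value was compared between tables. htz-1 was taken as R08C7.3, its sequence name in RefSeq. limma 3.58.1 (trend, robust; R 4.3.3) was fitted on log2(value + 1) to features reaching 10 in at least 3 libraries, over the 9 gonad or the 6 wild type libraries of an assay. p-values were adjusted by Benjamini-Hochberg over all features tested, and a call also needed a fold of at least 1.3. The study calls its replicates biological. The labels name no separate cultures, and p-values measure the spread between these libraries. Where groups are said not to overlap, the share of all features that separate likewise was not counted.

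mRNA values below 40 were whole multiples of 1 read's value, within 0.02 read, for 86.8 to 92.1% of values, which gave the depths. Small RNA values were whole multiples, within 0.01 read, for 100.0% of values, so tests on the reads worked back from them, by edgeR 4.0.16 and by DESeq2 1.42.0, served as alternatives without prg-1 replicate 1. For the mRNAs these tests were not run. The step of prg-1 replicate 1 was less certain, so its depth is approximate.

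Replicate numbers were taken to pair libraries only between wild type and mut-16 mRNA, where the residuals of same-numbered libraries correlated at 0.124 to 0.547. Small RNA residuals also correlated above 0 between wild type and prg-1 (0.007 to 0.034) and between the mutants (0.026 to 0.107). These were smaller and were not taken as pairs. The main fits had no block. The genes named are the 8 variants, up to 3 called genes with the largest change in each list, and the 2 genes most correlated with each variant. The members and lists were chosen with earlier results of these data known. Transposon tables and libraries grown at another temperature were not used here.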

Additional observations from a re-analysis of the deposited data

How the results depend on the processing

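The 8 counts of called genes and the 48 single-gene changes were recomputed under other scalings, pseudocounts, low-value filters, replicate sets and tests. Of the recomputed counts 122 kept within 1.5 times the first value, 9 were larger and 15 smaller. These labels compare numbers alone, not which genes were called or in which direction. The 122 include prg-1 against wild type with scaling on miRNAs alone, where other loci were called, and lower. Of the recomputed single-gene changes 785 kept their direction and their side of the threshold, and 18 gained and 21 lost the call with the direction kept. The other 32 changed sign. Some of these were near 0 and called in neither setting, but others lost a call, such as his-72, his-74 and htz-1 in prg-1 gonads with scaling on miRNAs alone. Without the fold threshold the mRNA counts were 2 in prg-1 (first value 1) and 2 in mut-16 gonads (first value 1), and the 22G-RNA counts 4 in mut-16 against wild type (first value 2) and 3 between the mutants (first value 1). The mut-16 mRNA count fell to 0 with a pseudocount of 0.5 or 5, with no low-value filter, with a mean above 1 as the filter and with the replicate block, and ranged from 0 to 1 when 1 library was left out. With library totals made equal, 5 22G-RNA loci were called in mut-16 against wild type and 5 between the mutants, where his-72, his-74, htz-1 and hcp-3 turned to log2 changes of -0.68, -0.59, -0.48 and -0.84, and in prg-1 against wild type hcp-3 and cpar-1 turned to -0.06 and -0.12. With scaling on miRNAs alone (TMM), 0 loci were called in mut-16 against wild type, where his-72, his-74, htz-1, hcp-3 and cpar-1 turned to -0.09, -0.76, -0.42, -0.85 and -0.74, and 0 between the mutants, where his-72 and hcp-3 turned to -0.01 and -0.17, while in prg-1 against wild type his-72, his-74, htz-1, hcp-3 and cpar-1 turned to -0.10, -0.67, -0.23, -1.03 and -1.08 and the 2 loci called, hcp-3 and cpar-1, were lower. With CSR-1-class totals made equal, chosen after seeing the data, the 22G-RNA counts were 3 for gonads against whole animals (first value 5), 1 for mut-16 and 0 between the mutants, with hcp-3 and cpar-1 turned to -0.09 and -0.15 in prg-1 against wild type, and his-74 and hcp-3 to 0.00 and -0.10 in mut-16 against wild type. TMM over all features and edgeR on the recovered reads each called 3 loci between the mutants, where cpar-1 turned to 0.19 and 0.10, and hcp-3 turned to -0.05 under both in mut-16 against wild type. Between the mutants, leaving out 1 library gave 1 to 2 called loci, with his-74 in place of htz-1 without prg-1 replicate 3. Of the mRNA changes that were not called, leaving out 1 library moved those in prg-1 against wild type across 0 for his-74 (-0.01 to 0.16), htz-1 (-0.01 to 0.15) and hcp-3 (-0.09 to 0.02), and that of his-72 between the mutants (-0.12 to 0.06). The replicate block changed no other call. edgeR and DESeq2, planned for the mRNAs too, were not run there because not nearly all values came out as whole reads. The cause of these differences was not tested. With library totals made equal, the median of all mRNAs in gonads against whole animals moved by -0.11, and that of all small RNAs by 0.63 in mut-16 gonads. In whole animals the small RNA depth limits the 22G-RNA values, htz-1 resting on 5 to 26 reads. his-69 rests on at most 8 reads in any library, and a difference between groups was not tested.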

Other observations

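The 22G-RNA loci of the genes that load these variants are given beside the CSR-1 class. Of that class 21.7% were called higher with prg-1 mutated and 35.9% with mut-16 mutated. Called lower were 433 of its 3555 tested loci with prg-1 mutated and 307 with mut-16 mutated. The counts of the listed genes were not split by the class of their loci. Of 12 H3 deposition genes with a locus, 1 was higher and 3 lower in prg-1 gonads on the deposited scale (median log2 change 0.18), and 7 were higher and 1 lower in mut-16 gonads (median 0.41). asfl-1, the chaperone gene whose mRNA was lower in prg-1 gonads, also had fewer 22G-RNA reads there (92.0 ± 9.31 normalized reads against 192.5 ± 15.8 in the wild type, SD, n = 3, log2 change -1.06 ± 0.13 SE, limma adjusted p = 2.3e-05).

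Of 18 CENP-A loading and kinetochore genes with a locus, 2 were higher and 1 lower in prg-1 gonads (median 0.20) and 7 higher and 0 lower in mut-16 gonads (median 0.36). Of 7 genes related to H2A.Z exchange, 2 were higher and 1 lower in prg-1 gonads (median 0.29) and 3 higher and 0 lower in mut-16 gonads (median 0.32). The median over all CSR-1-class loci was 0.11 in prg-1 and 0.29 in mut-16 gonads on the same scale, and with scaling on miRNAs alone the median over all small RNAs moved by -1.26 and -0.99.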
